A study of Arabidopsis thaliana with 12 samples.

Results

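A set of 10 genes that mark dividing cells was followed across the RNA of whole Arabidopsis thaliana seedlings that carry different forms of the plant DNA methyltransferase CMT2. The 10 genes were chosen by name, as gene identifiers in the expression files, because the V1200R plants are small. They are 10 of 69056 features listed in the files, and all 10 were among the 23614 features tested. The set held the D-type cyclin CYCD3;1 (AT4G34160), the A2-type cyclin CYCA2;3 (AT1G15570), the B-type cyclin-dependent kinases (CDKs) CDKB1;1 (AT3G54180), CDKB2;1 (AT1G76540) and CDKB2;2 (AT1G20930), the B1-type cyclins CYCB1;1 (AT4G37490), CYCB1;2 (AT5G06150), CYCB1;3 (AT3G11520) and CYCB1;4 (AT2G26760), and the cytokinesis syntaxin KNOLLE (AT1G08560). The cyclins and kinases are given below mostly by these gene identifiers, as the files list them.

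The study compared 6 groups of 2 libraries each, all from seedlings 10 days old, grown at 22°C with 16 hours of light and 8 hours of dark on medium with 1% sucrose. Col-0 is the wild-type accession. The cc plants carry the insertion alleles cmt2-7 and cmt3-11, of CMT2 and of its relative CMT3, in Col-0. CMT2/cc line 1 and line 19 are cc plants transformed with a genomic fragment of CMT2 under its own promoter and fused to a FLAG tag. V1200R/cc line 9 and line 15 carry the same fragment with the amino acid change V1200R, which puts arginine in the place of valine. The 4 lines are called CMT2 line 1, CMT2 line 19, V1200R line 9 and V1200R line 15 from here on. The study describes all of them as made in the cc background, with cmt2-7 and cmt3-11. Each is 1 transformed line, so that a feature of the line cannot be told apart from an effect of the protein within it. Nothing in the labels says whether the 2 libraries of a group came from separate plates of seedlings, and the p-values then measure only the spread between these libraries.

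Levels are given in TPM, a measure of transcript abundance that corrects for gene length and scales every library to the same total. The aligned bases implied by the files ranged from 930 to 1453 megabases per library, and the mean coverage of the 10 genes ranged from 2.61 to 31.8 reads per base. The correlation of the 2 libraries of a group over all tested features was 0.9801 to 0.9822. As a check of the labels, the native and transgenic CMT2 together stood at 15 and 13.3 TPM in Col-0, 1.70 and 1.99 TPM in cc, and between 79.6 and 159 TPM in the transgenic lines. For CMT3 the levels were 16.4 and 14.0 TPM under the label cc, 12.9 and 11.5 TPM in Col-0 and 4.72 to 7.02 TPM in the transgenic lines, so the cmt3-11 allele was not visible as a lower CMT3 level in cc. From here on, cc stands for the libraries that carry this label. The organ makeup was checked with marker genes: RBCS1A, the small subunit of Rubisco in green leaves, ranged from 13100 to 18800 TPM, the root hair gene EXPA7 ranged from 7.38 to 12.4 TPM, and the stem cell regulator WUS was listed at 0 in all 12 libraries.

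Cells commit to division when D-type cyclins activate the A-type CDK, which releases E2F transcription factors from the retinoblastoma protein RBR1 and turns on the genes of DNA replication. Plants also have B-type CDKs, found in no animal, which accumulate from late S phase to mitosis, where they act with A2- and B-type cyclins. Many genes of G2 and M phase carry in their promoters a short element, the M-specific activator (MSA), whose core AACGG is bound by the MYB3R proteins. Cytokinesis then builds a new wall inside the cell by fusing vesicles at the cell plate, for which the syntaxin KNOLLE is required. In a seedling these genes are active mainly in the meristems and young leaves, a small part of the tissue, so in bulk RNA fewer dividing cells and less RNA per dividing cell cannot be told apart.

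The MSA core was searched as AACGG or its reverse complement CCGTT in the 250 bases before the start of each gene, on the TAIR10 genome (RefSeq TAIR10.1 sequence). It was found in 6 of the 10 members: the B1-type cyclin AT5G06150 had 4 matches, AT4G37490 and AT3G11520 had 3 each, and AT1G20930, KNOLLE and AT4G34160 had 1 each. The other 4, AT1G76540 among them, had none. Among all 27444 nuclear protein-coding genes, 20.6% held a match. An exact match to the E2F consensus in the form TTTCCCGC (or GCGGGAAA) was in none of the 10 members in these 250 bases. It was in 0.619% of all coding genes. Other forms of the E2F site, and sequence after the gene start, were not searched. At most 2 matches per gene are printed below in the direction of transcription, with the core in capitals and up to 12 bases on each side, to show how the element sits in the B1-type cyclins and in the other members that hold it.
AT4G37490, chr4:17624353-17624381: aaaacaatcagaCCGTTggggttcattta
AT5G06150, chr5:1861756-1861784: ctaacctatccaCCGTTagatctaaaatt
AT5G06150, chr5:1861730-1861758: atttaatcatctAACGGcaacagatgaaa
AT3G11520, chr3:3627321-3627349: cctccttatccaCCGTTagatttaaagtt
AT3G11520, chr3:3627296-3627324: agttcatcatccAACGGctagaagtctaa
AT1G20930, chr1:7294819-7294847: agaaaaaaagaaCCGTTgaaaaaacatga
KNOLLE, chr1:2711001-2711024: caaatggacgacAACGGatacatc
AT4G34160, chr4:16357264-16357292: ttaactttaagaAACGGaacttatcggcg
The first windows shown for AT5G06150 and AT3G11520 were the most alike among different genes, with 23 of 29 positions the same and a shared run of 15 letters. Their cores start 69 and 64 bases before the gene. A match describes the letters only, and no binding was measured.

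Of the D- and A2-type cyclins, CYCD3;1 (AT4G34160, chr4:16357421-16359565), a D-type cyclin that promotes entry into the cycle, had 24.1 and 23.6 TPM in Col-0 and 28.6 and 29.9 TPM in cc. It had 22.4 and 22.3 TPM in CMT2 line 1, 26.7 and 28.2 TPM in CMT2 line 19, 21.2 and 21.9 TPM in V1200R line 9, and 22.3 and 26.4 TPM in V1200R line 15. The cc libraries were the highest of all 12, followed by both libraries of CMT2 line 19 and by replicate 2 of V1200R line 15. The annotated span of AT4G34160 overlaps AT4G34150 on the same strand by 40 bases, so reads there may be shared. AT4G34150 itself ranged from 85.8 to 180 TPM. CYCA2;3 (AT1G15570, chr1:5361865-5365559), an A2-type cyclin that works with the B1-type kinase AT3G54180 and restrains endoreduplication, the copying of DNA without division, had 14.6 and 13.2 TPM in Col-0 and 16.6 and 18.9 TPM in cc. Its levels were 13.4 and 13.5 TPM in CMT2 line 1, 15.8 and 16.4 TPM in CMT2 line 19, 11.3 and 10.5 TPM in V1200R line 9, and 10.8 and 15.1 TPM in V1200R line 15. This cyclin was thus highest in cc and lowest on average in V1200R line 9, with the libraries of line 15 on either side of Col-0.

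Of the B-type kinases, CDKB1;1 (AT3G54180, chr3:20059671-20061488) had 5.91 and 8.00 TPM in Col-0, 8.39 and 9.47 TPM in cc, 6.85 and 7.29 TPM in CMT2 line 1, 8.10 and 8.30 TPM in CMT2 line 19, 5.41 and 6.27 TPM in V1200R line 9, and 5.88 and 6.91 TPM in V1200R line 15. CDKB2;2 (AT1G20930, chr1:7292389-7294746), needed together with its close relative AT1G76540 for an ordered shoot meristem, had 12.6 and 9.84 TPM in Col-0, 14.0 and 16.1 TPM in cc, 10.4 and 9.41 TPM in CMT2 line 1, 11.9 and 12.2 TPM in CMT2 line 19, 9.96 and 11.2 TPM in V1200R line 9, and 9.91 and 13.7 TPM in V1200R line 15. Both kinases were highest in cc, above Col-0 by less than 1.5-fold. CDKB2;1 (AT1G76540, chr1:28720328-28722550) had 17.2 and 17.6 TPM in Col-0, 21.1 and 21.9 TPM in cc, 15.2 and 14.6 TPM in CMT2 line 1 and 18.4 and 17.7 TPM in CMT2 line 19, but 32.0 and 34.1 TPM in V1200R line 9 and 28.6 and 38.2 TPM in V1200R line 15. It was the only member whose mean level was not highest in cc, since all 4 V1200R libraries stood above all 8 others. The coding sequences of both B2-type kinases were 86.6% identical with a longest shared run of 29 bases, and those of AT3G54180 and its relative AT2G38620, which is no member, were 85.9% identical with a run of 41 bases, so some reads could be split between copies.

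The 4 B1-type cyclins activate CDKs at mitosis. CYCB1;2 (AT5G06150, chr5:1859279-1861703) had the highest level of the 4, with 12.9 and 11 TPM in Col-0, 18.6 and 19.8 TPM in cc, 12.3 and 11.4 TPM in CMT2 line 1, 17.0 and 15.5 TPM in CMT2 line 19, 11.7 and 14.2 TPM in V1200R line 9, and 13.4 and 14.4 TPM in V1200R line 15. In this gene CMT2 line 19 lay between cc and the other groups, without overlap with either. CYCB1;1 (AT4G37490, chr4:17621886-17624308), whose promoter is widely used to mark cells in G2 and M phase, had 4.40 and 4.87 TPM in Col-0, 6.02 and 7.88 TPM in cc, 4.69 and 5.11 TPM in CMT2 line 1, 7.31 and 5.91 TPM in CMT2 line 19, 4.18 and 4.12 TPM in V1200R line 9, and 3.86 and 5.53 TPM in V1200R line 15. Its cc libraries overlapped with those of CMT2 line 19 and lay above the other 8. CYCB1;3 (AT3G11520, chr3:3625286-3627273) had 4.77 and 4.05 TPM in Col-0, 6.54 and 6.70 TPM in cc, 5.40 and 4.42 TPM in CMT2 line 1, 6.17 and 5.02 TPM in CMT2 line 19, 4.29 and 4.54 TPM in V1200R line 9, and 4.60 and 4.94 TPM in V1200R line 15. CYCB1;4 (AT2G26760, chr2:11401118-11403433) had 5.89 and 6.59 TPM in Col-0, 8.50 and 9.56 TPM in cc, 6.50 and 6.21 TPM in CMT2 line 1, 7.96 and 6.91 TPM in CMT2 line 19, 7.36 and 6.27 TPM in V1200R line 9, and 5.57 and 8.00 TPM in V1200R line 15. In both of these cyclins the cc libraries were above all 10 others. KNOLLE (AT1G08560, chr1:2709525-2711000) had 22.1 and 21.5 TPM in Col-0, 33.8 and 34.5 TPM in cc, 22.4 and 23.2 TPM in CMT2 line 1, 33.1 and 29.0 TPM in CMT2 line 19, 25.4 and 23.3 TPM in V1200R line 9, and 21.2 and 27.7 TPM in V1200R line 15. Its cc and line 19 libraries stood apart above the other 8. The annotated span of KNOLLE overlaps the gene AT1G08550 on the other strand by 464 bases, and without knowledge of the strand in counting their reads there cannot be separated. AT1G08550 itself ranged from 34.2 to 42.2 TPM.

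**Figure D1:**
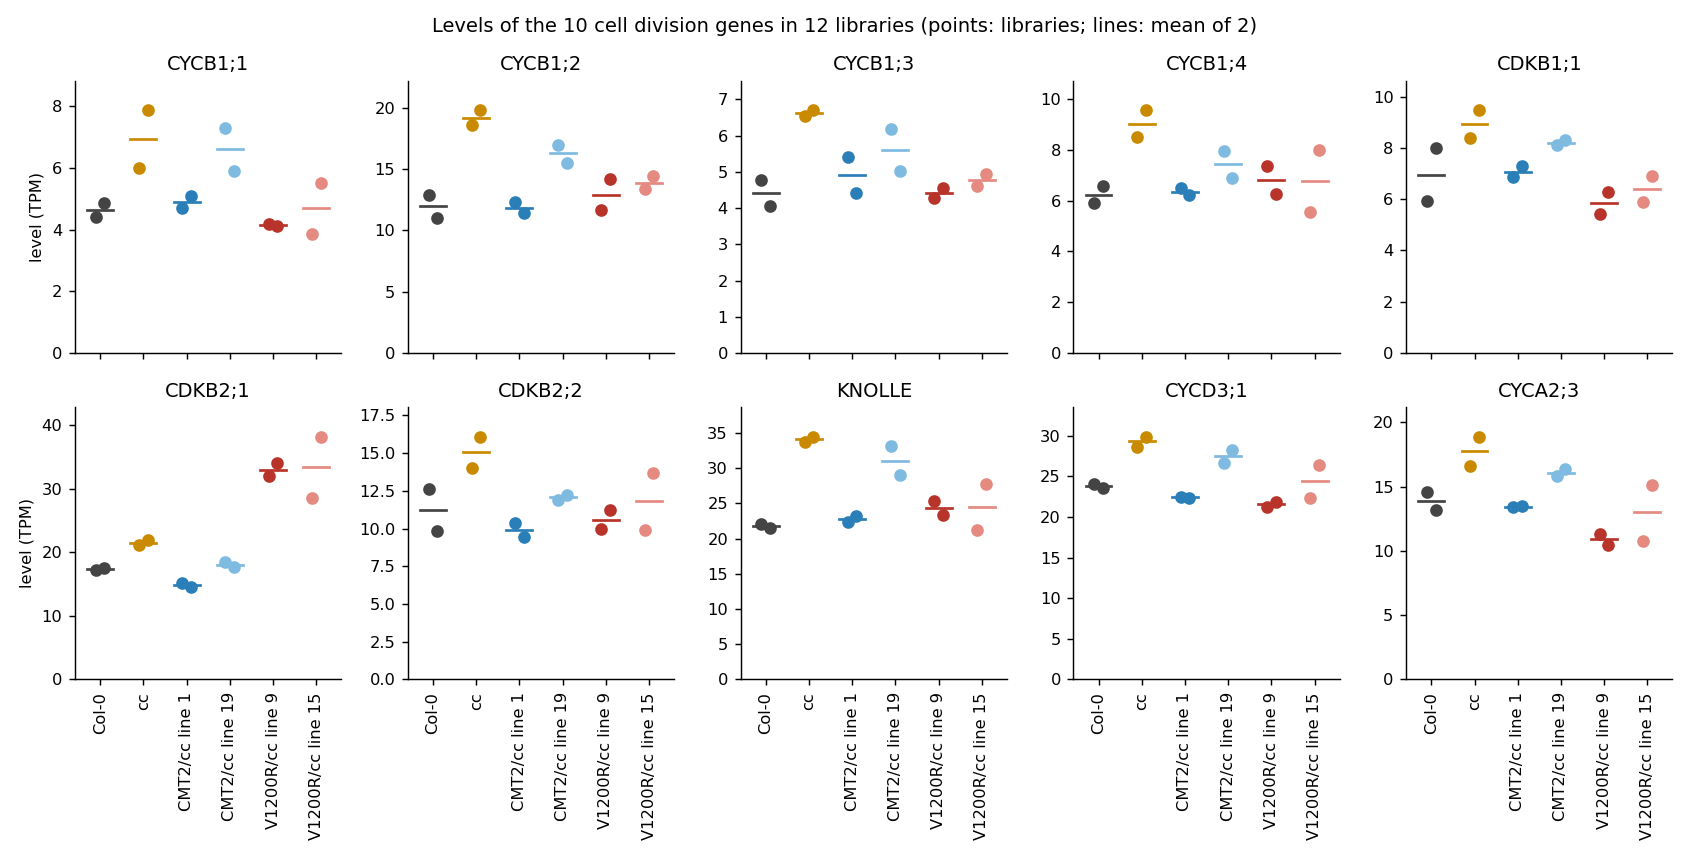
Levels of the 10 cell division genes in TPM (vertical axes, from 0) in the 6 groups (horizontal axes). Each point is 1 library and each line the mean of 2. In 9 panels the cc group has the highest mean, whereas CDKB2;1 is highest in the V1200R lines, at 28.6 to 38.2 TPM against 14.6 to 21.9 TPM elsewhere.

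The libraries labelled cc were compared with Col-0 to examine the cmt2-7 cmt3-11 background. Their CMT2 level was low but their CMT3 level was not, so whether they differ from Col-0 by both alleles could not be checked here. All 10 members were higher in both cc libraries than in both Col-0 libraries, whereas 27.3% of all tested features showed that pattern. The differences ran from 0.29 for the D-type cyclin AT4G34160 to 0.67 for the B1-type cyclin AT5G06150 on the log2(TPM + 0.5) scale, with a median of 0.46 against 0.02 over all tested features. Of the members, 2 passed the test (limma, Benjamini-Hochberg adjusted p below 0.05 over all features), where 3.4% of all features were called higher. AT5G06150 rose by 0.67 (SE 0.11, adjusted p = 0.011) and KNOLLE by 0.64 (SE 0.12, adjusted p = 0.015), which correspond to 1.59-fold and 1.55-fold. The other 8 had estimates of 0.29 to 0.54 and adjusted p between 0.069 and 0.25, although all 10 had an unadjusted p below 0.05. The 6 members with an MSA core had estimates of 0.29 to 0.67 and the 4 without had 0.30 to 0.50. The number called was 0 without cc replicate 1, without cc replicate 2 or without Col-0 replicate 2, 1 without Col-0 replicate 1, and 4 without either library of V1200R line 15.

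Most other genes of the same pathways had higher estimates in cc as well. These lists were written from general knowledge with earlier results of these data known. Over all features 3.4% were called higher in this comparison. Of 19 genes of DNA replication, 18 had a higher estimate in cc and 4 rose: PCNA1, the sliding clamp of the replication fork (0.63, adjusted p = 0.020), ICU2, a catalytic subunit of DNA polymerase alpha (0.59, adjusted p = 0.010), TSO2, a small subunit of ribonucleotide reductase (0.47, adjusted p = 0.018), and MCM6, a subunit of the replicative helicase (0.42, adjusted p = 0.034). Of 15 genes of mitosis and cytokinesis, 13 had a higher estimate and 4 rose: the spindle protein TPX2 (0.71, adjusted p = 0.029), the phragmoplast kinase RUNKEL (0.57, adjusted p = 0.024), the ubiquitin-conjugating enzyme UBC20 (0.61, adjusted p = 0.044) and the phragmoplast crosslinker MAP65-3 (0.70, adjusted p = 0.050 when rounded). Of 20 kinases and regulators 3 rose, among them CDC20.1 (0.71, adjusted p = 0.028) and CDC20.2 (0.79, adjusted p = 0.030), activators of the complex that degrades mitotic cyclins. Of 20 other A-, B- and D-type cyclins tested, 18 had a higher estimate and CYCA1;1 alone rose (0.54, adjusted p = 0.023). The list medians were 0.42 for replication, 0.40 for mitosis and cytokinesis, 0.33 for the other cyclins and 0.26 for the regulators.

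The inhibitors of CDKs, the KRP and SIM/SMR families, were tested as well. Of 15 measured genes, 9 had a higher and 6 a lower estimate in cc, with a median of 0.09, and none was called by limma, while 2 had an unadjusted p below 0.05. SMR5 was listed at 0 in all 12 libraries. Among markers of organs, 4 of the 5 tested genes of shoot meristem and young leaf had higher estimates in cc and GRF5, a factor of leaf cell proliferation, rose (0.76, adjusted p = 0.033). The summed level of this marker list was 37.2 to 40.3 TPM in Col-0 and 49.4 to 55.3 TPM in cc. Of the 7 genes of that list, WUS was at 0 in every library and CLV3 at 0 in 6 of 12. The root meristem list (5 of 5 tested) summed to 48.0 to 48.1 TPM in Col-0 and 49.2 to 54.5 TPM in cc. Most of this sum came from SCR (26.8 to 36.8 TPM over the 12 libraries) and SHR (10.2 to 14.2 TPM). PLT1, PLT2 and WOX5 reached at most 1.6 TPM, so the sum says little about these 3 genes. The differentiated root list (5 of 6 tested) summed to 104 to 113 TPM and 90.9 to 91.2 TPM, and the photosynthetic leaf list to 45800 to 50300 TPM and 48200 to 49000 TPM. No gene of these 3 lists was called by limma, while 0, 1 and 4 of them had an unadjusted p below 0.05. The tested shoot gene with a lower estimate in cc was STM, which maintains the shoot meristem. It had 3.19 and 3.21 TPM in Col-0 and 3.02 and 2.96 TPM in cc. The rest of the tested shoot list moved with the members, and its part in the result was not tested.

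**Figure D2:**
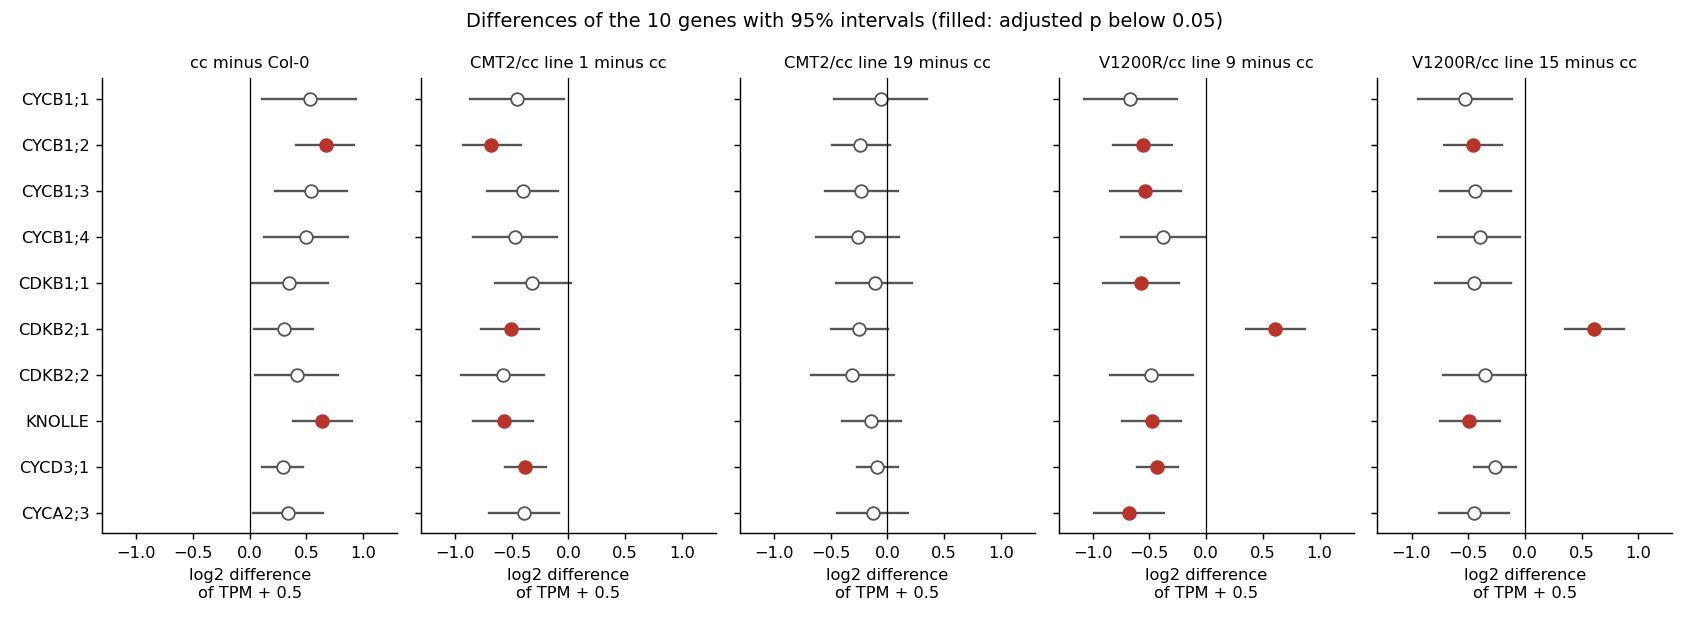
Differences of the 10 genes on the log2(TPM + 0.5) scale (horizontal axes) with 95% intervals for cc against Col-0 and for each transgenic line against cc. Filled points have an adjusted p below 0.05. All 10 points lie above 0 for cc against Col-0, all 10 lie below 0 for both CMT2 lines, and CDKB2;1 alone lies above 0 for both V1200R lines, at 0.61.

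Reintroducing CMT2 was examined by comparing each CMT2 line with the libraries labelled cc, from which the lines also differed in CMT3 (4.72 to 7.02 TPM against 16.4 and 14.0 TPM). These comparisons use the same cc libraries as the one above, so their values are placed side by side and do not stand as separate evidence. In CMT2 line 1 all 10 members were lower in both libraries than in both cc libraries, against 27.9% of all features, with a median of -0.46 (-0.03 over all features). In this line 4 fell, where 2.72% of all features were called lower: the B1-type cyclin AT5G06150 by 0.68 (SE 0.11, adjusted p = 0.011), KNOLLE by 0.57 (SE 0.12, adjusted p = 0.026), the D-type cyclin AT4G34160 by 0.38 (SE 0.08, adjusted p = 0.033) and the B2-type kinase AT1G76540 by 0.51 (SE 0.11, adjusted p = 0.040). In line 19 all 10 estimates were lower as well, from -0.31 for the B2-type kinase AT1G20930 to -0.06 for the B1-type cyclin AT4G37490, with 9 members that did not overlap with cc (25.6% of all features). None was called by limma, where 3.04% of all features were called in either direction, and none had an unadjusted p below 0.05. The number of members called in line 1 was 0 without cc replicate 2 or without CMT2 line 1 replicate 2, 1 without the other library of either group, and 2 without either library of Col-0 or of V1200R line 9. The shoot meristem and young leaf markers moved with the members in line 1, where 5 of 5 tested had lower estimates and GRF5 fell (-0.92, adjusted p = 0.015), with a summed level of 41.0 to 44.1 TPM. In line 19 that list had 3 higher and 2 lower estimates and 49.7 to 53.5 TPM. The root meristem markers had 5 of 5 lower estimates in line 1 and 4 of 5 in line 19. No other marker was called by limma in either line, while 1 shoot, 1 differentiated root and 1 photosynthetic leaf gene in line 19 and 2 genes of each of the latter lists in line 1 had an unadjusted p below 0.05. The part of these markers was not tested.

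The CMT2 lines were then set against Col-0. Line 1 had 5 members with a higher and 5 with a lower estimate, a median of 0.01 and a range of -0.22 to 0.14. None passed the limma test or had an unadjusted p below 0.05, and 5.18% of all features were called in either direction. In line 19 all 10 estimates were higher, with a median of 0.24, and 2 members were called where 5.03% of all features were called higher: KNOLLE rose by 0.50 (SE 0.12, adjusted p = 0.028) and the B1-type cyclin AT5G06150 by 0.43 (SE 0.11, adjusted p = 0.045). The count was 0 without either library of Col-0, without either library of cc or without CMT2 line 19 replicate 1, and it was 1 without CMT2 line 19 replicate 2, without either library of CMT2 line 1 or without either of V1200R line 15. Organ markers also differed between line 19 and Col-0. Of the shoot meristem and young leaf list, 4 of 5 had higher estimates and ANT, which promotes the growth of young leaves, rose (0.55, adjusted p = 0.024). Of the photosynthetic leaf list, RBCS1A rose by 0.33 (adjusted p = 0.021) and RBCS1B by 0.31 (adjusted p = 0.013), LHCB2.2, a light-harvesting protein, fell by 0.29 (adjusted p = 0.026), and the median was -0.1. The phosphate transporter gene PHT1;1 of the differentiated root list fell by 0.78 (adjusted p = 0.0090). In line 1 RBCS1A, RBCS1B and PHT1;1 were called in the same directions, at 0.30, 0.27 and -0.71. The part of these markers in the members' levels was not tested.

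Whether the lines themselves differed was tested directly. Line 19 had higher estimates than line 1 for all 10 members, from 0.17 for the B1-type cyclin AT3G11520 to 0.44 for the B1-type cyclin AT5G06150 and KNOLLE, with a median of 0.27 and of 0.0 over all features. No member was called by limma, the smallest adjusted p being 0.46 for AT5G06150, while 4 had an unadjusted p below 0.05, and 0.182% of all features were called. The 95% interval for AT5G06150 ran from 0.19 to 0.70. The CMT2 RNA level was lower in line 19, at 79.6 and 80.8 TPM against 114 and 123 TPM in line 1, and the part of this in the members' levels was not tested.

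The V1200R lines were compared with cc in the same way. They also differed from the libraries labelled cc in CMT3. It had 6.24 and 6.29 TPM in line 9 and 5.93 and 6.15 TPM in line 15, against 16.4 and 14.0 TPM in cc. Whether the lines differ from these cc libraries by the transgene alone could not be checked here. All members but the B2-type kinase AT1G76540, which makes 9, were lower in both libraries of each V1200R line than in both cc libraries, where 33.6% of all features showed that pattern for line 9 and 33.1% for line 15. In line 9 the 9 estimates ran from -0.68 to -0.38 and 6 members fell, where 5.17% of all features were called lower. These were the A2-type cyclin AT1G15570 by 0.68 (SE 0.14, adjusted p = 0.015), the B1-type kinase AT3G54180 by 0.57 (SE 0.15, adjusted p = 0.044), the B1-type cyclin AT5G06150 by 0.56 (SE 0.11, adjusted p = 0.016), the B1-type cyclin AT3G11520 by 0.54 (SE 0.14, adjusted p = 0.047), KNOLLE by 0.48 (SE 0.12, adjusted p = 0.033) and the D-type cyclin AT4G34160 by 0.43 (SE 0.08, adjusted p = 0.010). In line 15 the 9 estimates ran from -0.53 to -0.26 and 2 members fell, where 7.33% were called lower: KNOLLE by 0.49 (SE 0.12, adjusted p = 0.024) and AT5G06150 by 0.46 (SE 0.11, adjusted p = 0.028).

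The B2-type kinase AT1G76540 went the other way. It was above both cc libraries in both lines, as were 20.9% of all features in line 9 and 23.9% in line 15. It rose by 0.61 over cc in both lines (SE 0.11), with an adjusted p of 0.011 in line 9 and 0.0079 in line 15, where 3.65% and 6.32% of all features were called higher. The adjusted p of this gene was above 0.05 in line 9 without either cc library or without V1200R line 9 replicate 2, and in line 15 without cc replicate 1. In either direction 7 members were called in line 9, against 8.83% of all features. This count became 0 without cc replicate 2, 1 without cc replicate 1 or without V1200R line 9 replicate 1, and 2 without V1200R line 9 replicate 2. In line 15, where 3 were called against 13.7% of all features, it became 0 without cc replicate 1, 1 without cc replicate 2 or without V1200R line 15 replicate 1, and 6 without V1200R line 15 replicate 2.

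Replication genes had lower estimates than in cc in both V1200R lines, for all 19 genes, and 7 fell in line 9 and 8 in line 15. Over all features 5.17% were called lower in line 9 and 7.33% in line 15, shares that also stand beside the counts of the other lists here. MCM6 fell by 0.54 (adjusted p = 0.0061) and 0.60 (adjusted p = 0.0026) and TSO2 by 0.39 (adjusted p = 0.023) and 0.61 (adjusted p = 0.0018). RUNKEL fell by 0.62 (adjusted p = 0.0097) and 0.59 (adjusted p = 0.0095) and TPX2 by 0.76 (adjusted p = 0.013) and 0.61 (adjusted p = 0.026), as 2 of 15 mitotic genes called in line 9 and 4 of 15 in line 15. Of the shoot meristem and young leaf markers, 3 of 5 fell in line 9 and 1 of 5 in line 15. STM alone had a higher estimate than cc in both lines. It had 3.02 and 3.88 TPM in line 9 and 3.20 and 3.96 TPM in line 15, against 3.02 and 2.96 TPM in cc. GRF5 fell in both, by 1.10 and 1.00, and the list summed to 31.5 to 35.6 TPM in line 9 and 33.6 to 44.0 TPM in line 15. The root meristem list summed to 40.4 to 41.4 TPM and 38.7 to 43.4 TPM, with SCR, a regulator of the root stem cell niche, lower by 0.35 and 0.39 (adjusted p = 0.0053 and 0.0023). The differentiated root list summed to 102 to 134 TPM and 102 to 108 TPM, where limma called none and 1 gene had an unadjusted p below 0.05 in each line. The photosynthetic leaf list had none called in line 9, where 1 gene had an unadjusted p below 0.05, and 2 of 5 lower in line 15, RBCS1A by 0.29 (adjusted p = 0.026) and RBCS1B by 0.29 (adjusted p = 0.012), while the other 3 genes had higher estimates there. The part of these organ markers in the members' levels was not tested.

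Against Col-0, the estimates of the members in V1200R plants lay on both sides of 0. In line 9, 5 members had a higher and 5 a lower estimate, and in line 15 the split was 8 and 2. The medians were -0.03 and 0.08. Without the B2-type kinase AT1G76540, whose position is described below, 4 were higher and 5 lower in line 9 (median -0.07), against 7 and 2 for line 15 (median 0.06). The B2-type kinase AT1G76540 was the only member called in either line, at 0.91 in both (SE 0.11, 1.88-fold, adjusted p = 0.0018 in line 9 and 0.0015 in line 15), where 2.68% and 3.93% of all features were called higher. The call held without each of the 12 libraries in turn. With this gene included, 2 members had an unadjusted p below 0.05 in line 9 and 1 in line 15. The other 9 ran from -0.34 (the A2-type cyclin AT1G15570) to 0.16 in line 9 and from -0.11 to 0.21 in line 15. The 95% interval was -0.65 to -0.03 for AT1G15570 in line 9 (adjusted p = 0.23) and -0.05 to 0.47 for the B1-type cyclin AT5G06150 in line 15. Of the organ markers limma called only SCR, at -0.24 in line 9 and -0.28 in line 15. Of the other cell division lists it called SMR1 (-0.37 and -0.53), CYCD5;1 (-0.57 and -0.67) and CYCB2;4 (1.2 and 0.98). The part of these genes was not tested.

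The lines with the 2 forms of CMT2 were compared as the mean of both V1200R lines against the mean of both CMT2 lines. CMT2 RNA stood at 112 and 127 TPM in V1200R line 9 and 146 and 159 TPM in line 15. It stood at 114 and 123 TPM in CMT2 line 1 and 79.6 and 80.8 TPM in line 19. The part of this level in the differences was not tested. Both V1200R lines also shared the raised stretch of chromosome 1 described below, and neither CMT2 line did. For every gene of this comparison, the form of CMT2 and the stretch therefore cannot be told apart. Here 2 members were called. The B2-type kinase AT1G76540 was 1.99-fold higher with V1200R (0.99, SE 0.08, 95% interval 0.81 to 1.17, adjusted p = 4.1e-05), where 13.6% of all features were called higher. The A2-type cyclin AT1G15570 was lower by 0.31 (SE 0.10, 95% interval -0.53 to -0.09, adjusted p = 0.042), where 13.9% of all features were called lower. These shares treat the libraries of both lines as replicates of a form. With 1 mean per line, 1190 features were called higher and 731 lower in place of 3204 and 3284, and AT1G76540 was the 1 member called. The remaining 8 had estimates between -0.34 (the B1-type cyclin AT4G37490, adjusted p = 0.082) and 0.02 (the B2-type kinase AT1G20930, adjusted p = 0.90). AT1G76540 was called without each library in turn, while AT1G15570 was called only without V1200R line 15 replicate 2. Without that library 5 members were called and without any other library 1 or 2. No member differed between V1200R line 15 and line 9 by limma, none had an unadjusted p below 0.05, and 0.0212% of all features were called.

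In the same comparison all 19 replication genes had lower estimates with V1200R, with a median of -0.36. Of these 12 fell, where 13.9% of all features were called lower. As above, the calls of this comparison, here and in the lists below, treat the libraries of both lines as replicates of a form. The form also cannot be told apart from the chromosome 1 stretch for any of these genes. Calls with 1 mean per line are given for the members and for all features, and not for single lists. RNR2A, a small subunit of ribonucleotide reductase, had 35.9 and 44.2 TPM in CMT2 line 1, 39.3 and 40.6 TPM in line 19, 30.0 and 28.6 TPM in V1200R line 9 and 27.3 and 28.4 TPM in line 15. It was lower by 0.48 (adjusted p = 0.00058), with no overlap between the forms. MCM6 was lower by 0.43 (adjusted p = 0.0013) and TSO2 by 0.37 (adjusted p = 0.0022). The median of these genes was 0.20 over Col-0 in CMT2 line 1 and 0.45 in line 19, where 6 of 19 rose, and 0.0 and -0.01 in V1200R lines 9 and 15.

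Other cyclins fell in part, with 5 of 20 lower and 1 higher with V1200R. CYCD5;1 was lower by 0.50 (adjusted p = 0.0017) and CYCD3;2, a close relative of AT4G34160, by 0.34 (adjusted p = 0.0018). Only CYCB2;4 was called higher (0.81, adjusted p = 0.0035), and it had 5.78 to 10.6 TPM in the CMT2 lines and 10.6 to 15.9 TPM in the V1200R lines. Of 20 regulators 4 fell, against 13.9% of all features, and 1 fell when TPM were rescaled without the chromosome 1 stretch described below, an alternative chosen after seeing the data. The 4 were E2FA, an activator of S-phase genes (-0.29, adjusted p = 0.043), MYB3R1, a MYB protein that binds the MSA element (-0.24, adjusted p = 0.034), DEL1, an atypical E2F (-0.32, adjusted p = 0.046), and the gene AT1G63100 (-0.40, adjusted p = 0.011). Of the mitotic genes RUNKEL fell (-0.28, adjusted p = 0.030) and the ubiquitin-conjugating enzyme UBC19 rose (0.17, adjusted p = 0.0062). TPX2 had an estimate of -0.31 (adjusted p = 0.058). Among the CDK inhibitors SMR1 was lower (-0.41, adjusted p = 0.00030) and KRP4 higher (0.42, adjusted p = 0.0077), while KRP3 had an estimate of -0.36 (adjusted p = 0.068). ANT and GIF1, which promote the growth of young leaves, were lower by 0.44 (adjusted p = 0.0050) and 0.53 (adjusted p = 0.020), and STM, which maintains the shoot meristem, had 2.30 to 3.79 TPM in the CMT2 lines and 3.02 to 3.96 TPM in the V1200R lines (0.28, adjusted p = 0.17). All 5 root meristem genes had lower estimates and SCR fell (-0.31, adjusted p = 0.00062), while PLT1 and PLT2 reached at most 1.60 TPM and were not called, and COBL9, a root hair gene, had 2.28 to 4.73 TPM. Of 5 differentiated root genes 2 had higher and 3 lower estimates, with a median of -0.01, and only the phosphate transporter gene PHT1;1 was called (0.75, adjusted p = 0.00057). Of 5 genes of the photosynthetic leaf RBCS1A (-0.37, adjusted p = 0.00075) and RBCS1B (-0.33, adjusted p = 0.00049) fell, with 2 higher and 3 lower estimates and a median of -0.03. The part of these organ markers was not tested.

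**Figure D3:**
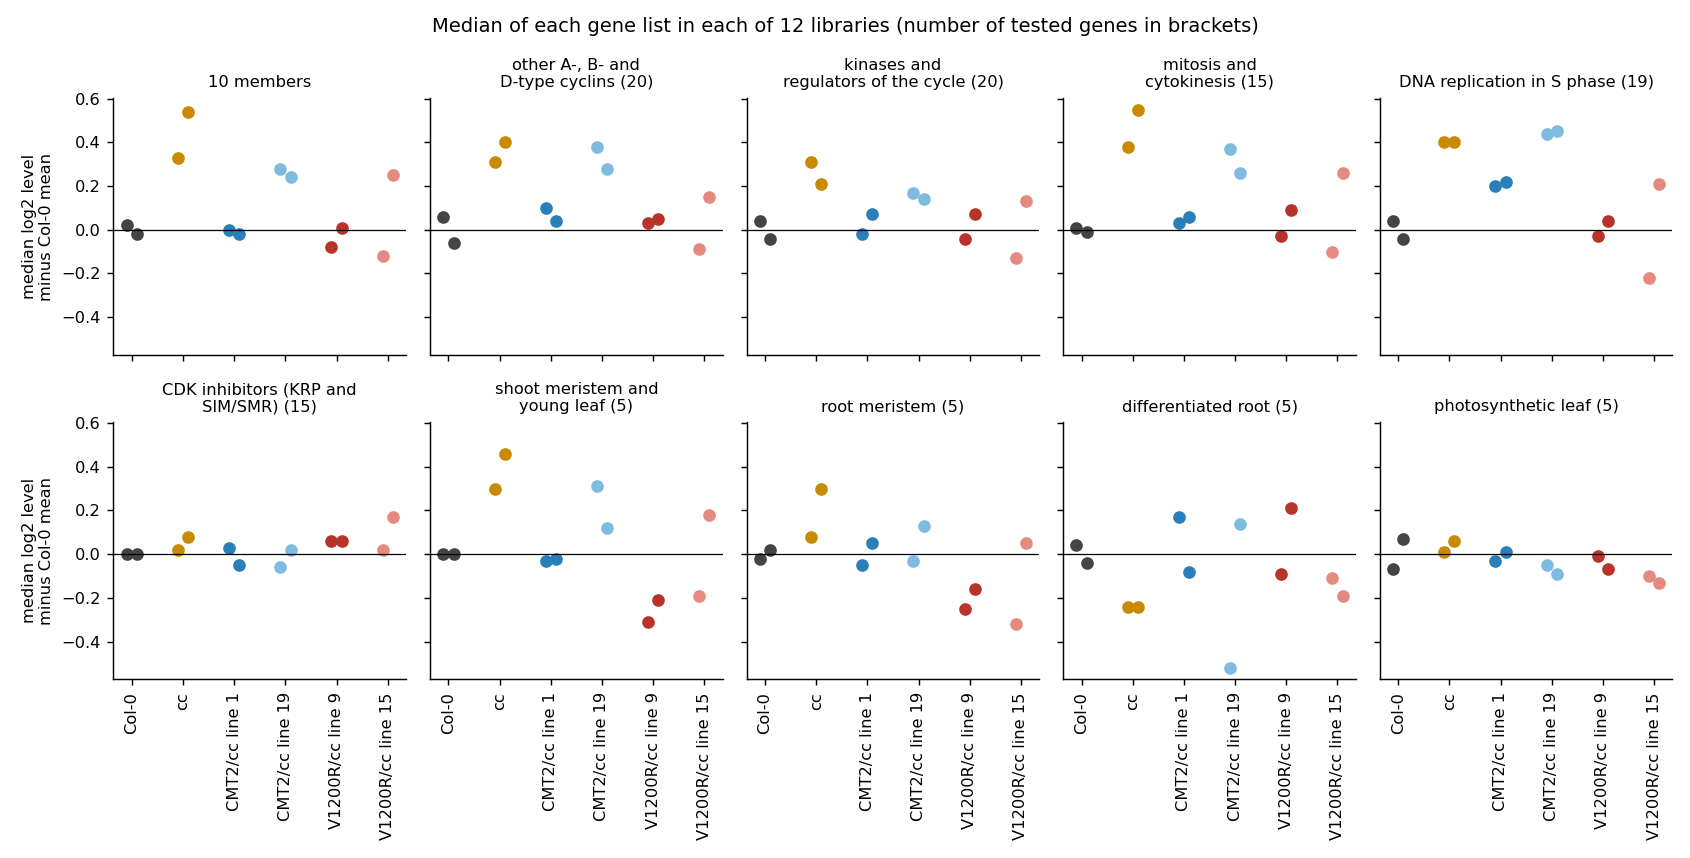
Median log2(TPM + 0.5) of each gene list minus its mean in Col-0 (vertical axis) for the 2 libraries of each group. All 10 members together stand at 0.33 and 0.54 in cc and between -0.12 and 0.25 in the V1200R lines. The replication genes stand at 0.40 in cc, 0.44 and 0.45 in CMT2 line 19 and -0.22 to 0.21 in V1200R, and the CDK inhibitors stay between -0.06 and 0.17.

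CDKB2;1 differed from the other members in its position. On chromosome 1 it lay in a stretch of neighbouring genes that were nearly all higher in V1200R plants. The stretch was found after seeing the values, as the run of genes around this gene whose running median over 15 coding genes was at least 0.5 in the V1200R minus CMT2 comparison. It reached from AT1G75580 to MST1 (AT1G79230), chr1:28377377-29804033, and held 330 tested coding genes. Their median difference was 0.91 with 302 called higher and 1 lower, against a median of -0.02 for the 20560 other tested coding genes. The value of the kinase gene, 0.99, lay within the range of 0.56 to 1.33 between their lower and upper deciles. The 15 coding genes just before the stretch had a median of 0.07 and the 15 just after it 0.08. These values describe the run by the measure that defined it and carry no test.

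The comparisons with Col-0 and cc share the V1200R libraries with the rule that found the stretch, so their values describe it as well and carry no test. Over Col-0 the median of the 330 genes was 0.93 in V1200R line 9, with 255 called higher and 0 lower, and 0.94 in line 15, with 268 higher and 0 lower. Over cc it was 0.90 in line 9, with 263 higher and 1 lower, and 0.91 in line 15, with 273 higher and 1 lower. The median of cc over Col-0, which the rule did not use, was 0.0. In the CMT2 lines, whose libraries the rule used, the medians over Col-0 were 0.01 in line 1 and 0.0 in line 19. The genes of the stretch made up 1.76% to 1.83% of all TPM in the 8 libraries without V1200R and 3.54% to 3.68% in the 4 with it. By library, their median stood 0.89 and 0.94 above the mean of the 8 others in line 9 and 0.90 and 0.95 in line 15, beside 0.83, 0.92, 0.67 and 1.08 for the B2-type kinase AT1G76540.

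Besides the B2-type kinase AT1G76540, only the cyclin CYCB2;4 (chr1:28627694-28630789) of the cell division lists lay in the stretch. It was the one other cyclin called higher with V1200R than with CMT2, and it was 1.20 over Col-0 in line 9 (adjusted p = 0.012) and 0.98 in line 15 (adjusted p = 0.023). It was not called against cc, with 0.40 in line 9 (adjusted p = 0.27) and 0.19 in line 15 (adjusted p = 0.60), and cc itself, with 8.81 and 13.2 TPM, stood 0.79 over Col-0 (adjusted p = 0.070). AT1G76530, which overlaps AT1G76540 by 44 bases on the other strand, had 2.46 to 4.95 TPM. Outside the stretch 3 windows on chromosome 1, 8 on chromosome 3, 3 on chromosome 4 and none on chromosomes 2 and 5 had a running median of 0.5 or more, the highest being 0.59. The files hold RNA levels only, and whether the DNA of the stretch differs between the lines was not tested. The counts and medians given for all 10 members in V1200R plants include AT1G76540.

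**Figure D4:**
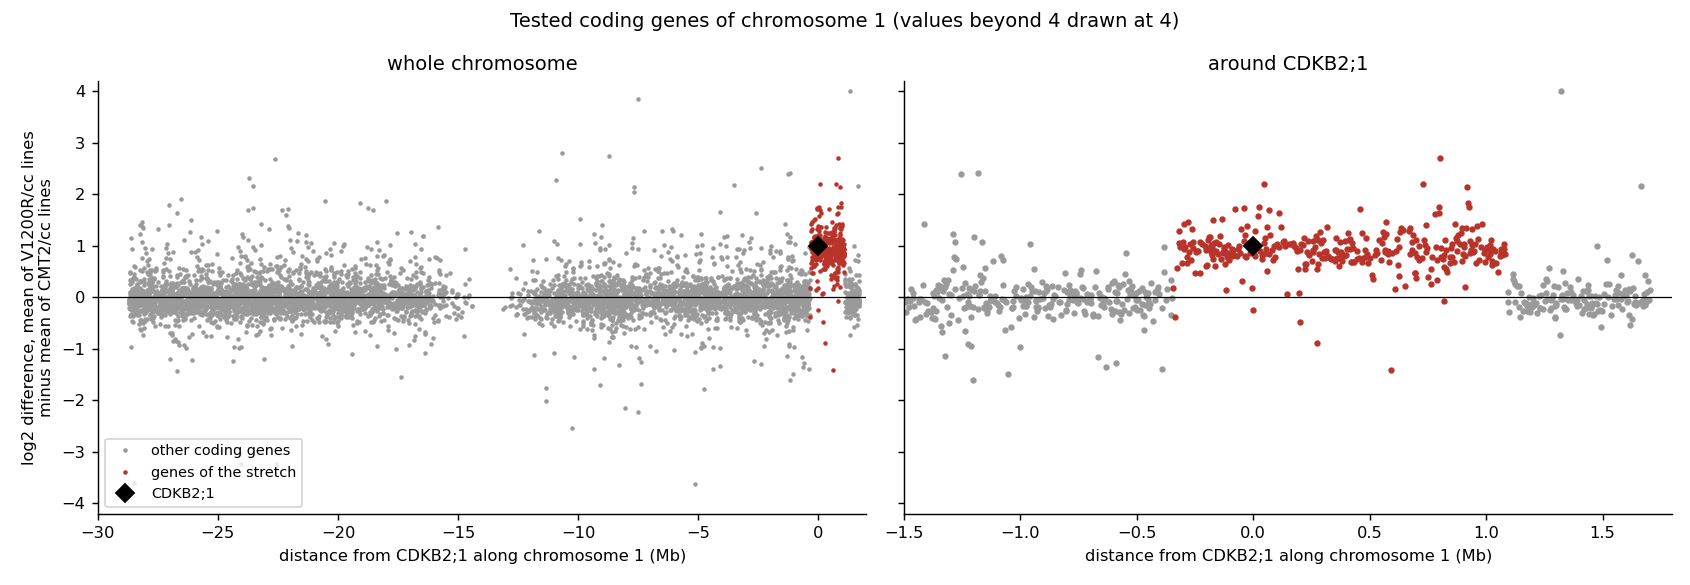
Difference between the V1200R and CMT2 lines (vertical axis, log2 scale) of the tested coding genes of chromosome 1 by their distance from the kinase gene in Mb (horizontal axis), for the whole chromosome on the left and around that gene on the right. The 330 genes of the stretch have a median of 0.91 and the diamond, the kinase gene AT1G76540, lies among them at 0.99, while the genes on both sides scatter around 0.

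The members' levels also moved together from library to library. Over the 12 libraries, the 36 pairs among the 9 members other than the B2-type kinase AT1G76540 had Pearson correlations of 0.54 to 0.92 with a median of 0.775, and the 9 pairs with AT1G76540 had -0.42 to 0.16 with a median of -0.13. The libraries share their groups and the scaling to TPM, so these values only describe the pattern. Part of it lay within groups: the median of all 10 members was -0.12 in V1200R line 15 replicate 1 and 0.25 in replicate 2, relative to Col-0. Of 14849 other coding genes with a mean of at least 5 TPM, those whose pattern over the 12 libraries was most like the mean of the members were AT4G35730 (r = 0.973), CDC20.1 (0.972), CDC20.2 (0.969), AT3G02120 (0.964), BAG7 (0.963), CCS52B, an activator of the same ubiquitin ligase complex as CDC20 (0.957), and the tubulin genes TUB3 (0.954) and TUB2 (0.953). CDC20.1 and CDC20.2, like TUB2 and TUB3, are neighbouring and similar copies whose reads may be shared. TUB3 ranged from 196 to 237 TPM over the libraries, BAG7 from 88.9 to 105 TPM and CDC20.2 from 13.2 to 26.4 TPM.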

How the data were processed

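RNA of whole seedlings was sequenced by the authors from poly(A)-selected libraries. Reads were filtered with fastp, aligned to TAIR10 with HISAT2 2.0.0 and quantified with StringTie. Strand use in counting is not given in the sources used here. The deposited tables hold TPM, FPKM (used for an alternative) and mean coverage per feature as StringTie wrote them. TPM are not counts and keep no read number, so no count test was run. Aligned bases were computed from coverage and length. In all, 4 identifiers listed more than once were summed. A feature was kept where 2 or more libraries reached 0.5 TPM, which left 23614 of 69056. These were fitted with limma 3.58.1 (R 4.3.3, trend) on log2(TPM + 0.5), with 6 groups in 1 fit and Benjamini-Hochberg adjustment within each of 12 comparisons. Fold changes on this scale understate the change of low genes. On data simulated for cc minus Col-0 over 23614 features, 44 of 100 genes changed by 0.5 on the log2 scale and 91 of 100 changed by 1 were recovered.

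The members, lists and tests were chosen with earlier results of these data known. All 10 members are named; from each list, the 3 genes with the smallest adjusted p in the V1200R minus CMT2 comparison; the 8 genes most like the members' mean profile; and fixed organ markers. Other genes named because they passed a test, and those of the chromosome 1 stretch, were chosen after their values were seen. Coordinates are those of the deposited tables; 27442 of 27444 matched coding identifiers had the same start and end in RefSeq TAIR10.1, which gave the sequences. Promoter tables and protein sequences were not used here. Alternatives are described at the end.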

Additional observations from a re-analysis of the deposited data

Results flagged for a closer look

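CDKB2;1 differed between the V1200R lines and the CMT2 lines, by 0.99 on the log2 scale (V1200R higher, limma, adjusted p = 4.1e-05). Its level was higher in all 4 V1200R libraries than in all 4 CMT2 libraries. The gene lies in the chromosome 1 stretch described above, whose 330 genes had a median of 0.91 in this comparison. Whether this difference belongs to the form of CMT2 or to the stretch was not tested. CYCA2;3 differed the other way, by -0.31 (adjusted p = 0.042), with adjusted p between 0.0042 and 0.22 over the alternatives other than the minimum fold. Its levels were 13.4 to 16.4 TPM with CMT2 and 10.5 to 15.1 TPM with V1200R, so that 1 of the 4 V1200R libraries, V1200R/cc line 15 replicate 2, lay within the range of the CMT2 libraries. The call of CYCA2;3 was lost with 1 mean per line and with TPM rescaled without the stretch. Over all features 13.6% were called higher and 13.9% lower in this comparison. Groups of 2 libraries are too small for a check of single libraries that stand apart.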

How the results depend on the processing

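No called member changed direction under any alternative run. With 2 libraries a group, calls near the threshold moved easily. Of 2900 values of single members under the alternatives, 170 lost a call, 25 gained one and 2705 did neither. Only a call of the main fit can be lost, and most of the 2900 values belong to members not called there. Among the calls of the main fit, AT3G11520 and AT3G54180 in V1200R/cc line 9 minus cc were kept in 8 of 24 alternatives. AT1G76540 in V1200R minus CMT2 was kept in 25 of 26. With a minimum 2-fold change 0 members were called in each of the 8 comparisons that had any. Without a filter on low values, which tests 69056 features, the number called was 1 for cc minus Col-0, CMT2/cc line 1 minus cc, V1200R/cc line 9 minus cc and V1200R minus CMT2, and 0 for V1200R/cc line 15 minus cc and CMT2/cc line 19 minus Col-0. Fitting only the groups compared gave 1, 1 and 3 for cc minus Col-0, CMT2/cc line 1 minus cc and V1200R/cc line 9 minus cc, and 0 for V1200R/cc line 15 minus cc, V1200R/cc line 15 minus Col-0 and CMT2/cc line 19 minus Col-0. Median-ratio scaling gave 4 in place of 7 for V1200R/cc line 9 minus cc, quantile normalization 5 in place of 3 for V1200R/cc line 15 minus cc, and line means 1 in place of 2 for V1200R minus CMT2; the cause was not tested where no fewer libraries entered. Rescaling TPM without the chromosome 1 stretch, an alternative chosen after seeing the data, left 5 members called in V1200R/cc line 9 minus cc and 1 in V1200R minus CMT2, and 1 in place of 4 regulators lower in the latter.

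Leaving out 1 library gave 0 to 4 members called for cc minus Col-0, 0 to 4 for CMT2/cc line 1 minus cc, 0 to 6 for each V1200R line minus cc, 0 to 2 for CMT2/cc line 19 minus Col-0, 1 to 5 for V1200R minus CMT2, 1 for each V1200R line minus Col-0 and 0 for the others; where a group kept 1 library, it was assumed to vary like the rest. Libraries with the same replicate number deviated together little, with correlations of -0.068 to 0.11 and 2 of 15 pairs of groups over 0.1. These values cannot show whether the same number marks a shared plate or preparation. With the replicate number as a block 1 member in place of 2 was called for CMT2/cc line 19 minus Col-0.

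Over all features, line means called 1190 higher and 731 lower for V1200R minus CMT2 (3204 and 3284 without them). Fitting only the groups compared called 278 and 29 for cc minus Col-0 (802 and 247), 37 and 186 for CMT2/cc line 1 minus cc (307 and 643), 24 and 137 for CMT2/cc line 19 minus cc (181 and 537), 419 and 495 for V1200R/cc line 9 minus cc (863 and 1221), 573 and 507 for V1200R/cc line 15 minus cc (1492 and 1732), 70 and 48 for CMT2/cc line 1 minus Col-0 (656 and 568), 134 and 95 for CMT2/cc line 19 minus Col-0 (1188 and 1067), 201 and 74 for V1200R/cc line 9 minus Col-0 (633 and 426) and 233 and 78 for V1200R/cc line 15 minus Col-0 (927 and 560). Without a filter the last 4 became 197 and 143, 387 and 279, 316 and 141, and 438 and 228, and V1200R minus CMT2 1914 and 1713. TPM over nuclear coding genes called 429 and 196 for cc minus Col-0, 221 and 347 for CMT2/cc line 1 minus cc and 113 and 259 for CMT2/cc line 19 minus cc. A minimum mean of 1 TPM called 251 and 372 for CMT2/cc line 1 minus cc and 126 and 280 for CMT2/cc line 19 minus cc. The minimum fold left 484 and 248 for V1200R minus CMT2 and 430 and 46 for cc minus Col-0. Quantile normalization called 687 and 389 for cc minus Col-0 and 414 and 539 for CMT2/cc line 1 minus cc, and median-ratio scaling 1118 and 999 for V1200R/cc line 9 minus cc.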
